A study of Homo sapiens with 24 samples.

Results

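The 30 genes described here belong to cholesterol and fatty acid synthesis under the sterol regulatory element binding proteins (SREBPs). They were taken by name from the deposited non-normalized table, in which each has 1 of the 34595 rows. The sterol arm holds 18 enzymes on the route from acetyl-CoA to cholesterol, the fatty acid arm holds 8 enzymes, and 4 genes are regulators or a sterol carrier. SC4MOL and SC5DL are the file's older names for MSMO1 and SC5D. Human SREBPs are made as membrane proteins of the endoplasmic reticulum. When sterol in that membrane is low, the carrier SCAP takes them to the Golgi, where proteases release a fragment that enters the nucleus and switches on the genes of both routes. INSIG proteins hold SCAP back when sterol is plentiful, and INSIG1 is itself a target of the SREBPs. SREBF2 encodes the form known mainly for sterol genes, and SREBF1 encodes the forms known mainly for fatty acid genes and, in part, sterol genes.

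RNA came from 2 established human pancreatic cancer cell lines, Panc1 and Capan1, each with 6 groups of 2 one-colour Illumina bead arrays, 24 arrays in all. All cells grew in RPMI with 10% serum. The inhibitor group of each line received an IRAK1/4 inhibitor at 10 uM for 24 h, and its DMSO group received the vehicle. The shIRAK1+4, shIRAK1, shIRAK4 and scramble groups were infected with a pSuperRetroPuro retrovirus carrying shIRAK1, shIRAK1, shIRAK4 or a scrambled sequence, then selected with puromycin at 1 ug/mL for 48 h. A second virus, pSuperRetroNeoGFP, carried shIRAK4 in the shIRAK1+4 cells and the scrambled sequence in the other hairpin groups, and all were selected with geneticin at 500 ug/mL for 4 days. Scramble and DMSO cells thus differ in virus, selection and vehicle together, and these cannot be told apart. Whether both arrays of a pair stem from different cultures is not stated, so the p-values speak for the spread among these 24 arrays alone, which may be technical. The design text names Panc1 alone for the hairpins, but hairpin arrays of both lines are present and both are described.

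Between 10015 and 12090 genes per array were detected, and detection began at a normalized log2 level of 5.52 to 5.72. Over the 8534 genes present on all arrays the median SD between the 2 arrays of a group lay between 0.0724 in Capan1 DMSO and 0.184 in Capan1 shIRAK1+4. IRAK1 had log2 levels of 8.35 and 8.64 in Panc1 shIRAK1+4, 8.31 and 9.56 in Panc1 shIRAK1 and 11.52 and 11.96 in Panc1 shIRAK4, against 11.29 and 11.52 in Panc1 scramble. In Capan1 it had 9.09 and 8.59 with shIRAK1+4, 9.54 and 8.96 with shIRAK1 and 9.63 and 9.55 with shIRAK4, against 10.46 and 10.41 with scramble. IRAK1 fell in both shIRAK1+4 comparisons and in Panc1 shIRAK1. The fall in Capan1 shIRAK1 missed the threshold (adjusted p = 0.0515). IRAK4 was present on 7 of 24 arrays and on no array of the shIRAK4, shIRAK1+4 or scramble groups, so a fall against scramble could not be measured. In Panc1 it had 5.26 and 5.29 with shIRAK4, 5.23 and 5.28 with shIRAK1+4 and 5.91 and 6.01 with shIRAK1, against 5.42 and 5.53 with scramble and 6.40 and 5.94 with DMSO. Panc1 shIRAK1 was at least 1.2-fold higher than scramble (adjusted p = 0.0313), and DMSO was at least 1.39-fold higher than scramble (adjusted p = 0.00149). All 8 ductal epithelial markers were present on all 12 Capan1 arrays and 6 of 8 on all 12 Panc1 arrays. Of the endothelial markers, 3 of 3 were present on no Panc1 array and 1 of 3 on no Capan1 array, with none on all 12 arrays of either line. Of the immune markers, 3 of 5 (PTPRC, CD3E and CD79A) were on no array of either line and 1 of 5 was on all 12 arrays of each. Of the fibroblast markers 5 of 7 were on no Panc1 array, while in Capan1 4 of 7 were on none and 1 on all 12, and of the acinar markers 4 of 4 were on no Panc1 array, while in Capan1 3 of 4 were on none and 1 on all 12.

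Promoter sequences were looked up because the arms can be set side by side at the sites where SREBPs and their partners are known to bind. RefSeq (GRCh38.p14) gave a promoter for 26 of the 30 genes. No promoter was matched for ACAT2, FDFT1 and SQLE of the sterol arm or for FASN of the fatty acid arm. Each window holds the 250 bases before an annotated start. 3 motifs were searched on both strands: the sterol regulatory element letters TCACNCCAC, the NF-Y box CCAAT and the Sp1 box GGGCGG. None of the 3 motifs contains another. The 5 windows below belong to the SREBP gene with the element letters and to 4 genes whose levels carry the results. They are written 5′ to 3′ on the strand of the gene, and capitals mark the element letters and the NF-Y boxes (ATTGG where the box lies on the other strand).
SREBF2 (chr22:41832855-41833104, plus strand): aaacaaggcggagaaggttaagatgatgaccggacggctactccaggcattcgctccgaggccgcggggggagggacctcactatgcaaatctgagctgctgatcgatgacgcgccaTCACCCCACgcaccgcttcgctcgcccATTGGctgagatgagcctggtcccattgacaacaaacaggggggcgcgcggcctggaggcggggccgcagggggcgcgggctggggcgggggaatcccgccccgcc
HMGCS1 (chr5:43313413-43313662, minus strand): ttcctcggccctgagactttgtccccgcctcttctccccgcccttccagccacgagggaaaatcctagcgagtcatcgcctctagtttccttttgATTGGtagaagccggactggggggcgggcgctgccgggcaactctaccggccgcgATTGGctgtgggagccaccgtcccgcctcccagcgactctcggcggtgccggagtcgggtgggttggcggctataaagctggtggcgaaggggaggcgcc
INSIG1 (chr7:155297628-155297877, plus strand): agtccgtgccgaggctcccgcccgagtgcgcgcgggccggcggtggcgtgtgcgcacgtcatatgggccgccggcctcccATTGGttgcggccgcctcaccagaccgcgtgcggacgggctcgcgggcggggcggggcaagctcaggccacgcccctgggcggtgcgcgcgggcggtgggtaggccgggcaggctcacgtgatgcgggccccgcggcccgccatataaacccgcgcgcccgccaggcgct
SCD (chr10:100346983-100347232, plus strand): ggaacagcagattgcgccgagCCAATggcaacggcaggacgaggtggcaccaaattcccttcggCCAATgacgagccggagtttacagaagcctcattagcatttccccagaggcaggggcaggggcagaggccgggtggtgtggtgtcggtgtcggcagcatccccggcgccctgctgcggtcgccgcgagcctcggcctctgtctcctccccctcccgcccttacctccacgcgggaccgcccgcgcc
ELOVL6 (chr4:110198616-110198865, minus strand): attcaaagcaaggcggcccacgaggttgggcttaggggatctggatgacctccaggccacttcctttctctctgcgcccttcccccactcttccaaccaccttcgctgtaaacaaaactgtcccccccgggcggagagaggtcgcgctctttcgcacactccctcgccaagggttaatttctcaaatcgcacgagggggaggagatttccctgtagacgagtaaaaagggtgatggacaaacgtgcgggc
The element letters lay 133 bases before the SREBF2 start, with an NF-Y box 106 bases before it. HMGCS1 has 2 annotated starts, and the window of the start shown had NF-Y boxes 155 and 100 bases before it, SCD 229 and 186 bases before, and INSIG1 1 box 170 bases before. The ELOVL6 window held none of them and 1 Sp1 box.

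An NF-Y box was found for 13 of 15 sterol arm genes with a promoter (86.7%), for 3 of 4 regulators (not SREBF1) and for 3 of 7 fatty acid genes (42.9%). Over all 27305 genes of the table the share was 37%. PMVK and CYP51A1 were the sterol arm genes without one, and ELOVL6, FADS1, FADS2 and LPIN1 the fatty acid genes without one. The Sp1 box was found for 25 of 26 genes (96.2%), NSDHL being the exception, against 46.2% of all genes. The strict element letters were found for SREBF2 alone, against 1.09% of all genes. Genes with several annotated starts had several windows, and no test was made of these shares.

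**Figure D1:**
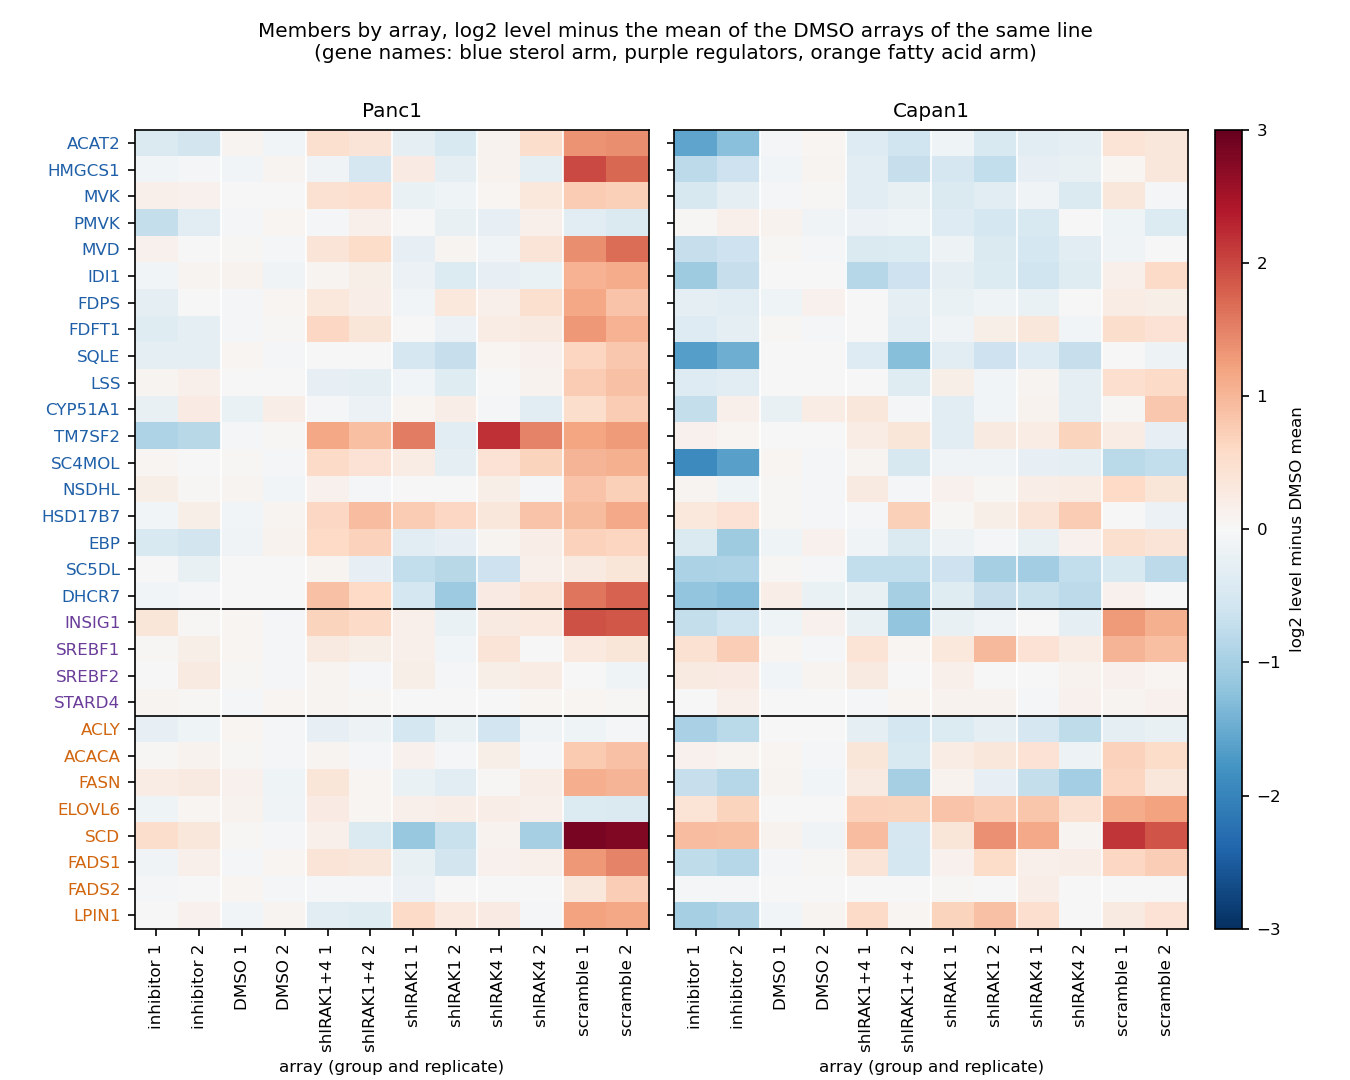
Log2 level of each of the 30 genes on each array minus the mean of the DMSO arrays of the same line, Panc1 at left and Capan1 at right, with replicates side by side. The Panc1 scramble columns are the reddest of the Panc1 panel in both arms, and the Capan1 inhibitor columns are the bluest of the Capan1 panel.

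A one-probe gene counted as present on an array at a detection p under 0.01, and a gene with several probes when its level reached the detection limit. By this rule 23 of the 30 genes were present on all 24 arrays. The genes with several probes passed the detection p itself on fewer arrays: ACACA on 0, SREBF1 on 5, LSS on 6, ACAT2 on 13, INSIG1 on 19 and SC4MOL on 23. ELOVL6 passed it on 22. LSS was present on 23 arrays, ELOVL6 on 22, SREBF1 and MVK on 19, SREBF2 on 11 and FADS2 on 2. STARD4, a carrier that moves cholesterol between membranes, was present on none and entered no comparison. Levels near the limit are compressed, so fold changes of MVK, LSS, SREBF1, SREBF2, FADS2 and, in Panc1, ELOVL6 are understated. All fold changes below are log2 differences ± SE from 1 limma model over the 24 arrays, and genes were called at an adjusted p under 0.05.

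In Panc1 the hairpin comparisons share 1 pattern of levels. The scramble arrays stood highest, and arrays with shIRAK1+4, shIRAK1 or shIRAK4 lay nearer to the DMSO level. Scramble was the highest of the 6 Panc1 groups for 16 of 18 sterol arm genes and 6 of 8 fatty acid genes. Both scramble arrays lay above the other 10 Panc1 arrays for 15 of 18 sterol arm genes, 6 of 8 fatty acid genes and INSIG1. Neither count was taken over all genes, so they do not show whether the module differs from other genes in this. Minus the DMSO mean, the median over the sterol arm was 0.39 and 0.36 on the shIRAK1+4 arrays, -0.07 and -0.24 on the shIRAK1 arrays and 0.10 and 0.28 on the shIRAK4 arrays, against 1.02 and 1.04 on the scramble arrays. Over the fatty acid arm it was 0.11 and -0.09 with shIRAK1+4, -0.22 and -0.27 with shIRAK1 and 0.11 and -0.03 with shIRAK4, against 1.15 and 1.09 with scramble. These medians cover only genes present on every Panc1 array, 17 of the sterol arm (not LSS) and 6 of the fatty acid arm. ELOVL6 and FADS2 were left out, and ELOVL6 had its lowest Panc1 mean in scramble. The 3 knockdown comparisons use the same 2 scramble arrays, and scramble against DMSO uses them again, so their values stand side by side and are not independent of one another. In RNA of whole cultures, fewer cells that express a gene and less RNA per cell cannot be told apart.

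Against scramble, shIRAK1+4 cells had 18 of 28 tested genes lower and 1 higher, where 14.7% of all genes tested were called, 6.5% lower and 8.18% higher. With shIRAK1, 21 of 28 genes fell and 1 rose, against 10.8% called among all genes, 5.12% lower and 5.63% higher. With shIRAK4, 18 of 29 genes fell and 1 rose, against 13.7%, 6.45% lower and 7.24% higher. The median log2 fold change over the genes was -0.75 with shIRAK1+4, -1.0 with shIRAK1 and -0.70 with shIRAK4, and over all genes tested it was 0.02, 0.01 and 0.00 in the same order. For scramble against DMSO, 22 of 28 genes rose and 1 fell, against 26.8% of all genes, 12.8% higher and 14.1% lower, and the median was 1.03. Scaling arrays by their median instead of quantiles left 2, 8 and 5 calls with shIRAK1+4, shIRAK1 and shIRAK4 and 11 for scramble against DMSO, with medians over the genes of -0.60, -0.70, -0.50 and 0.98. Calls among all genes were also fewer under that scaling, at 183 of 11522, 177 of 11084, 213 of 11305 and 340 of 11412 in the same order. Without shIRAK1+4 replicate 2, 12 genes were called for shIRAK1+4 against scramble.

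The early steps of the sterol arm, from acetyl-CoA to isoprenoids, held the largest sterol arm difference with shIRAK1+4 and shIRAK4. HMGCS1, which makes HMG-CoA, had log2 levels of 8.03 and 7.62 with shIRAK1+4, 8.37 and 7.86 with shIRAK1 and 8.23 and 7.86 with shIRAK4, against 10.10 and 9.85 with scramble, and the DMSO arrays had 8.06 and 8.20. All 6 knockdown arrays lay more than 1 log2 unit below both scramble arrays and on either side of the DMSO pair. The fold change against scramble was -2.15 ± 0.19 with shIRAK1+4 (adjusted p = 3.11e-06), -1.86 ± 0.19 with shIRAK1 and -1.93 ± 0.19 with shIRAK4, and scramble exceeded DMSO by 1.85 ± 0.19. ACAT2, a thiolase that joins acetyl-CoA units, had 9.65 and 9.55 with shIRAK1+4, 8.87 and 8.71 with shIRAK1 and 9.26 and 9.68 with shIRAK4, against 10.52 and 10.56 with scramble and 9.26 and 9.07 with DMSO. Its fold change was -1.75 ± 0.15 with shIRAK1 (adjusted p = 3.48e-06), and no knockdown array reached a scramble array. MVD, the decarboxylase that yields isopentenyl diphosphate, had 6.63 and 6.78 with shIRAK1+4, 6.0 and 6.31 with shIRAK1 and 6.13 and 6.63 with shIRAK4, against 7.63 and 7.91 with scramble and 6.27 and 6.20 with DMSO. The shIRAK1+4 pair had the highest mean of the knockdowns and its fold change against scramble was -1.07 ± 0.15 (adjusted p = 0.000278). IDI1, which isomerizes that product, had 6.95 and 7.03 with shIRAK1+4, 6.68 and 6.45 with shIRAK1 and 6.62 and 6.67 with shIRAK4, against 7.91 and 7.98 with scramble, and fell by 1.30 on the log2 scale with shIRAK4 (adjusted p = 4.31e-05).

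FDPS, which makes farnesyl diphosphate, and FDFT1, which joins farnesyl units to squalene, fell in all 3 knockdowns, with fold changes of -0.75 ± 0.16 to -0.89 ± 0.16 for FDPS between shIRAK1+4 and shIRAK1, and of -0.69 ± 0.15 and -1.25 ± 0.15 for FDFT1 in the same groups. MVK, the mevalonate kinase, fell with shIRAK1 (-0.91 ± 0.13) and shIRAK4 (-0.56 ± 0.13), but its change with shIRAK1+4 missed the threshold (-0.27 ± 0.13, adjusted p = 0.197). PMVK, the next kinase of the route, had values above 0: 0.44 ± 0.17 with shIRAK1+4, 0.27 ± 0.17 with shIRAK1 and 0.35 ± 0.17 with shIRAK4, none past the threshold.

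After squalene, DHCR7, the reductase of the last step to cholesterol, separated the hairpins most. It had log2 levels of 8.91 and 8.62 with shIRAK1+4, 7.50 and 6.95 with shIRAK1 and 8.27 and 8.40 with shIRAK4, against 9.63 and 9.80 with scramble and 8.03 and 8.03 with DMSO. The shIRAK1 arrays lay below DMSO and the shIRAK1+4 arrays above it, and no knockdown array reached scramble. Its fold change was -0.95 ± 0.22 with shIRAK1+4 (adjusted p = 0.00762), -2.49 ± 0.22 with shIRAK1 (adjusted p = 3.80e-06) and -1.38 ± 0.22 with shIRAK4. Knockdowns were not tested against each other. LSS, the cyclase that makes lanosterol, had 5.77 and 5.72 with shIRAK1+4, 5.93 and 5.65 with shIRAK1 and 6.02 and 6.11 with shIRAK4, against 6.78 and 6.88 with scramble. All 6 knockdown arrays were low, within 1 log2 unit of the detection limit, and the fold change with shIRAK1+4 was -1.09 ± 0.14 (adjusted p = 8.63e-05).

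SQLE, the squalene epoxidase, and NSDHL, which works with SC4MOL to remove methyl groups from the sterol ring, also fell in all 3 knockdowns. SQLE fell most with shIRAK1 (-1.32 ± 0.20) and NSDHL fell by 0.75, 0.77 and 0.70 on the log2 scale with shIRAK1+4, shIRAK1 and shIRAK4. The SQLE call was kept under 12 of 13 alternatives with shIRAK1, 6 of 13 with shIRAK1+4 and 4 of 13 with shIRAK4, the calls with shIRAK1+4 and shIRAK4 being lost without any 1 of their 4 arrays. SC4MOL, the methyl sterol oxidase, fell with shIRAK1+4 (-0.54 ± 0.17) and shIRAK1 (-1.06 ± 0.17), and was -0.50 ± 0.17 with shIRAK4 (adjusted p = 0.0583). The SC4MOL call with shIRAK1+4 was kept under 4 of 13 alternatives and lost under median scaling, with the deposited normalized values and without any 1 of its 4 arrays. EBP, the sterol isomerase, and SC5DL, the desaturase before DHCR7, fell with shIRAK1 alone among the called results (-0.96 ± 0.17 and -1.10 ± 0.20). PMVK and 3 other sterol arm genes were not called in any Panc1 knockdown. CYP51A1, the lanosterol demethylase, had fold changes of -0.83 to -0.52. TM7SF2, a sterol reductase, had 8.79 and 6.91 on its shIRAK1 arrays, against 8.43 and 8.52 with scramble, and -0.63 ± 0.40 as its fold change, the widest SE of the sterol arm. With shIRAK1+4 it had 8.40 and 8.15, below scramble. With shIRAK4 it had 9.44 and 8.74, both above scramble, and this pair had the highest mean of the Panc1 groups. HSD17B7, a keto reductase of the route, had fold changes of -0.44 to -0.27.

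Among the regulators, INSIG1, the SREBP target that retains SCAP, followed the enzymes. It had log2 levels of 7.65 and 7.57 with shIRAK1+4, 7.15 and 6.80 with shIRAK1 and 7.26 and 7.29 with shIRAK4, against 8.89 and 8.86 with scramble and 7.06 and 6.93 with DMSO. Every knockdown array lay more than 1 log2 unit below both scramble arrays. Its fold change was -1.27 ± 0.22 with shIRAK1+4 (adjusted p = 0.00134), -1.90 ± 0.22 with shIRAK1 and -1.60 ± 0.22 with shIRAK4, and 1.88 ± 0.22 for scramble against DMSO. SREBF1 was close to the detection limit on every Panc1 array, between 5.46 and 5.93, and passed in no Panc1 comparison. SREBF2 lay between 5.44 and 5.83 and was testable in Panc1 with shIRAK4 only (0.26 ± 0.12, adjusted p = 0.15).

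The fatty acid arm held the largest fold change of each Panc1 knockdown. SCD, which puts the first double bond into saturated fatty acids, had log2 levels of 9.56 and 8.97 with shIRAK1+4, 8.28 and 8.74 with shIRAK1 and 9.51 and 8.42 with shIRAK4, against 12.26 and 12.19 with scramble and 9.44 and 9.37 with DMSO. All knockdown arrays lay more than 2 log2 units below scramble, and the lowest of them, shIRAK1 replicate 1, lay more than 1 log2 unit below DMSO. The fold change was -2.96 ± 0.44 with shIRAK1+4 (adjusted p = 0.000348), -3.71 ± 0.44 with shIRAK1 and -3.26 ± 0.44 with shIRAK4, and 2.82 ± 0.44 for scramble against DMSO (adjusted p = 0.000303). FADS1, a desaturase of polyunsaturated fatty acids, had 9.12 and 9.07 with shIRAK1+4, 8.50 and 8.18 with shIRAK1 and 8.85 and 8.89 with shIRAK4, against 10.03 and 10.21 with scramble and 8.68 and 8.78 with DMSO. It fell by 1.78 on the log2 scale with shIRAK1 (adjusted p = 5.41e-05). LPIN1, a phosphatidate phosphatase of glycerolipid synthesis, had 7.96 and 7.93 with shIRAK1+4, 8.86 and 8.58 with shIRAK1 and 8.54 and 8.25 with shIRAK4, against 9.48 and 9.45 with scramble and 8.21 and 8.36 with DMSO. Here the shIRAK1+4 pair was the lowest, below DMSO as well, with a fold change of -1.52 ± 0.18 (adjusted p = 3.97e-05).

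FASN, the fatty acid synthase, and ACACA, the acetyl-CoA carboxylase that feeds it, fell in all 3 Panc1 knockdowns. FASN changed by -0.84 ± 0.27 with shIRAK1+4 (adjusted p = 0.0482), -1.33 ± 0.27 with shIRAK1 (adjusted p = 0.00533) and -0.94 ± 0.27 with shIRAK4 (adjusted p = 0.0314). The FASN call was kept under 13 of 13 alternatives with shIRAK1, 6 of 13 with shIRAK4 and 4 of 13 with shIRAK1+4, and the shIRAK4 and shIRAK1+4 calls were lost without any 1 of their 4 arrays. ACACA changed by -0.81, -0.79 and -0.76 with shIRAK1+4, shIRAK1 and shIRAK4 (adjusted p = 0.0137, 0.0195 and 0.0211), each call being kept under 6 of 12 alternatives and lost under median scaling and without either scramble array. ACLY, which makes cytosolic acetyl-CoA from citrate, did not pass in any of them (-0.29 to -0.12). FADS2, the partner desaturase of FADS1, was above background on the scramble arrays of Panc1 only, so its fall is a bound: scramble was at least 1.38-fold higher than shIRAK1+4 (means 5.45 in shIRAK1+4 and 6.06 in scramble). It entered the comparisons through that scramble pair alone, so a fall was the only direction open to it and no p-value is given. ELOVL6, which lengthens saturated fatty acids, was the 1 gene that rose in each knockdown. It had 6.15 and 5.98 with shIRAK1+4, 6.07 and 6.12 with shIRAK1 and 6.12 and 6.08 with shIRAK4, against 5.50 and 5.49 with scramble, where it was not well above background, and 6.03 and 5.80 with DMSO. The knockdown pairs were therefore at least 1.29-fold (shIRAK1+4), 1.32-fold (shIRAK1) and 1.32-fold (shIRAK4) higher than scramble, with adjusted p = 0.00622, 0.00595 and 0.00485, and scramble was the lowest pair. None of these 3 rises was called under median scaling (adjusted p = 0.595, 0.377 and 0.451) or with the background taken from all probes (adjusted p = 0.718, 0.727 and 0.705), and the shIRAK1+4 rise was not called without shIRAK1+4 replicate 1.

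**Figure D2:**
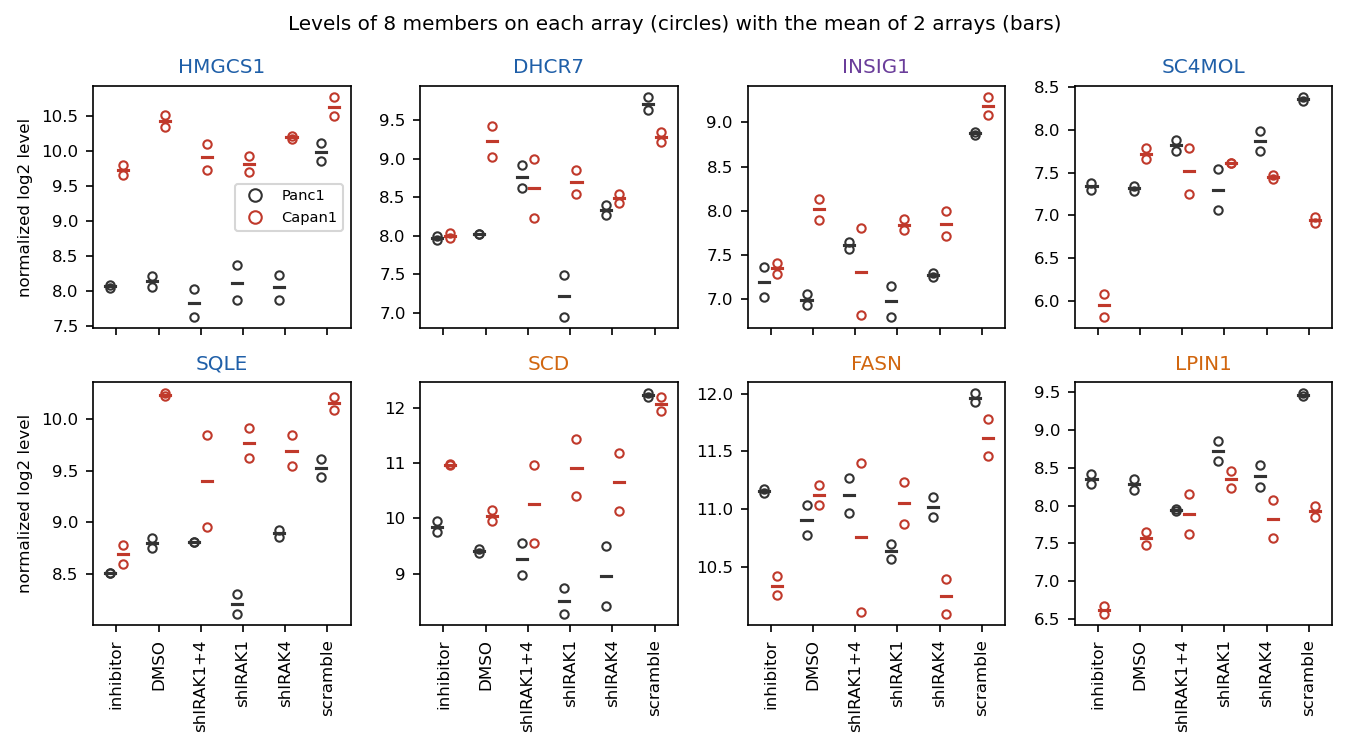
Normalized log2 level of 8 genes on each array (open circles) with the mean of each pair (bars), Panc1 in black and Capan1 in red, by group. In Panc1 the scramble pair is the highest in all 8 panels, and in Capan1 the inhibitor pair is the lowest by mean for SC4MOL, SQLE, HMGCS1, DHCR7 and LPIN1.

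The 2 arms can be set side by side in Panc1. The median fold change was -0.73 in the sterol arm and -0.83 in the fatty acid arm with shIRAK1+4, -1.05 in the sterol arm and -0.77 in the fatty acid arm with shIRAK1, and -0.70 in the sterol arm and -0.85 in the fatty acid arm with shIRAK4. The gap between the arms was not tested. Of the sterol arm 11, 14 and 11 of 18 genes fell in these comparisons, and of the fatty acid arm 6 of 8 fell in each. FADS2 is counted among these 6, and among those that rose in scramble against DMSO, though it was tested through the scramble pair alone. For scramble against DMSO, 15 of 18 sterol arm genes rose with a median of 1.03, and 6 of 8 fatty acid genes rose with a median of 0.94. This order of the arms turned with the background from all probes (0.46 sterol, 0.52 fatty acid) and a background SD from detection quantiles (1.00 and 1.05). It also turned with the detection p for every gene (1.04 and 1.06) and without DMSO replicate 1 (0.96 and 0.98). It held under the other alternatives, among them median scaling (0.98 and 0.94). In that comparison MVD (1.53 ± 0.15), DHCR7 (1.69 ± 0.22) and FADS1 (1.40 ± 0.21) stood beside SCD, INSIG1 and HMGCS1 as the 6 largest, and ELOVL6 fell: DMSO was at least 1.16-fold higher than scramble (adjusted p = 0.021). TM7SF2 (1.23 ± 0.40) and HSD17B7 (1.04 ± 0.22), not called in any knockdown, also rose in scramble. The HSD17B7 call was kept under 12 of 13 alternatives. The TM7SF2 call was kept under 5 of 13 and lost without any 1 of its 4 arrays.

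**Figure D3:**
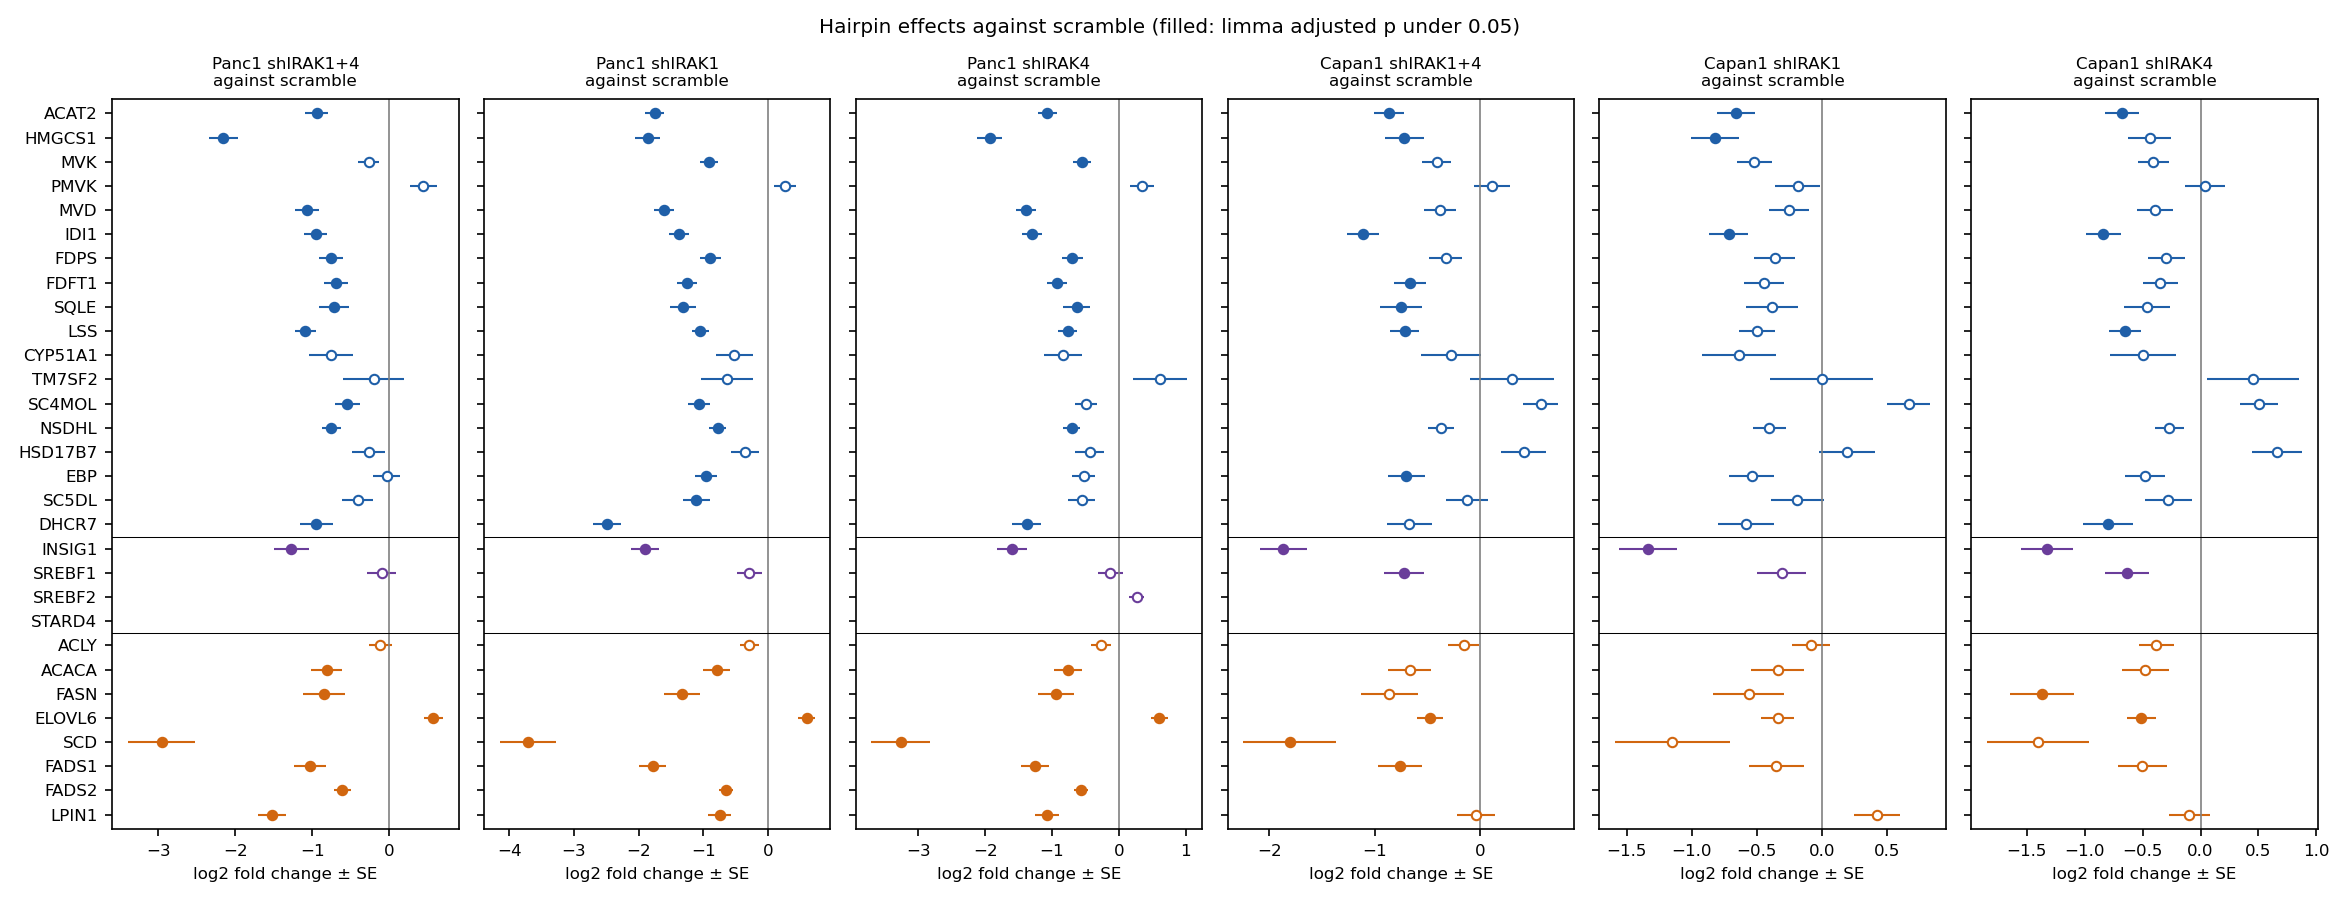
Log2 fold change ± SE of each gene for shIRAK1+4, shIRAK1 and shIRAK4 against scramble, Panc1 in the left 3 panels and Capan1 in the right 3; filled circles passed the limma threshold, and each panel has its own scale. In Panc1 SCD lies furthest left in each panel and ELOVL6 lies right of 0, and Capan1 has fewer filled circles.

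In Capan1 scramble was the highest of the 6 Capan1 groups for 11 of 18 sterol arm genes and 5 of 7 fatty acid genes present in that line, and both scramble arrays lay above the other 10 arrays for 7 of 18 and 5 of 8. As in Panc1, these counts were not taken over all genes. Against scramble, 12 of 27 tested genes fell and none rose with shIRAK1+4, where 5.68% of all genes were called, 3.34% lower and 2.34% higher. With shIRAK1, 4 of 27 fell, against 1.63% called among all genes, 0.759% lower and 0.869% higher. With shIRAK4, 8 of 27 fell, against 8.34%, 3.86% lower and 4.48% higher. The medians over the genes were -0.66, -0.39 and -0.46 with shIRAK1+4, shIRAK1 and shIRAK4, and over all genes -0.01, -0.01 and -0.04. Under median scaling 19, 2 and 6 genes were called with shIRAK1+4, shIRAK1 and shIRAK4, and among all genes 1005 of 11793, 73 of 11858 and 489 of 12111. These 3 comparisons share the Capan1 scramble arrays. The 2 Capan1 shIRAK1+4 arrays differed: replicate 1 was higher for 21 of 26 genes, with a median gap of 0.35. Without replicate 2 of that group 4 genes were called, without scramble replicate 1 or 2 there were 3 and 4, and without shIRAK1+4 replicate 1 there were 16. With shIRAK1, leaving out any 1 array left 1 or 2 calls, and with shIRAK4 there were 3 and 4 without scramble replicate 1 and 2 and 4 without shIRAK4 replicate 2.

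INSIG1 was the most changed gene of the module in Capan1 shIRAK1+4 and shIRAK1. It had log2 levels of 7.80 and 6.82 with shIRAK1+4, 7.79 and 7.90 with shIRAK1 and 7.99 and 7.72 with shIRAK4, against 9.29 and 9.08 with scramble and 7.90 and 8.13 with DMSO. All 6 knockdown arrays were more than 1 log2 unit below both scramble arrays and shIRAK1+4 replicate 2 was the lowest of them. The fold change was -1.87 ± 0.22 with shIRAK1+4 (adjusted p = 0.000166), -1.34 ± 0.22 with shIRAK1 (adjusted p = 0.00376) and -1.33 ± 0.22 with shIRAK4 (adjusted p = 0.00148). SREBF1 had 6.29 and 5.92 with shIRAK1+4, 6.19 and 6.84 with shIRAK1 and 6.30 and 6.09 with shIRAK4, against 6.88 and 6.78 with scramble and 5.94 and 5.80 with DMSO. Replicate 2 of shIRAK1 reached the scramble arrays and the other knockdown arrays did not. SREBF1 fell with shIRAK1+4 (-0.72 ± 0.19, adjusted p = 0.0339) and shIRAK4 (-0.64 ± 0.19, adjusted p = 0.0479). The shIRAK1+4 call was kept under 4 of 12 alternatives. The shIRAK4 call was kept under 2 of 13 and lost without any 1 of its 4 arrays.

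In the sterol arm, IDI1 and ACAT2 fell with all 3 Capan1 hairpins. IDI1 had 6.78 and 7.03 with shIRAK1+4, 7.35 and 7.24 with shIRAK1 and 7.06 and 7.29 with shIRAK4, against 7.80 and 8.22 with scramble and 7.64 and 7.64 with DMSO. No knockdown array reached the DMSO or scramble pair, and the fold change with shIRAK1+4 was -1.11 ± 0.15 (adjusted p = 0.000525). ACAT2 had 8.79 and 8.57 with shIRAK1+4, 9.04 and 8.72 with shIRAK1 and 8.84 and 8.89 with shIRAK4, against 9.58 and 9.51 with scramble, and fell by 0.86 on the log2 scale with shIRAK1+4 (adjusted p = 0.00284). HMGCS1 fell with shIRAK1, where it had 9.92 and 9.70 in shIRAK1 cells against 10.49 and 10.77 in scramble cells (-0.82 ± 0.19, adjusted p = 0.0359), and with shIRAK1+4 (-0.72 ± 0.19). SQLE had 9.85 and 8.96 with shIRAK1+4 against 10.22 and 10.09 with scramble: replicate 2 alone lay more than 1 log2 unit below, and the fold change was -0.75 ± 0.20 (adjusted p = 0.0368). FDFT1, EBP and LSS also fell with shIRAK1+4 (-0.66 ± 0.15, -0.70 ± 0.17 and -0.71 ± 0.14). With shIRAK4 the sterol arm calls were ACAT2, IDI1, LSS and DHCR7. LSS had 6.21 and 5.85 with shIRAK4 against 6.65 and 6.72 with scramble (-0.65 ± 0.14). DHCR7 had 8.55 and 8.43 with shIRAK4 against 9.35 and 9.22 with scramble (-0.80 ± 0.22, adjusted p = 0.0314), and the pairs did not overlap.

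SC4MOL had no fall with any Capan1 hairpin. It had 7.79 and 7.25 with shIRAK1+4, 7.61 and 7.61 with shIRAK1 and 7.47 and 7.42 with shIRAK4, against 6.91 and 6.98 with scramble and 7.79 and 7.66 with DMSO. The scramble pair was lower than every knockdown and DMSO array, and the differences of 0.58 ± 0.17, 0.66 ± 0.17 and 0.50 ± 0.17 did not pass (adjusted p = 0.0516, 0.0552 and 0.0731). MVK, PMVK, MVD, FDPS, CYP51A1, TM7SF2, NSDHL, HSD17B7 and SC5DL were not called in any Capan1 hairpin comparison.

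In the fatty acid arm of Capan1, SCD had 10.97 and 9.55 with shIRAK1+4, 10.41 and 11.43 with shIRAK1 and 11.18 and 10.14 with shIRAK4, against 12.19 and 11.94 with scramble and 10.16 and 9.95 with DMSO. The 2 arrays of each knockdown lay more than 1 log2 unit apart, all of them below scramble, and SCD passed with shIRAK1+4 alone (-1.81 ± 0.44, adjusted p = 0.0242). FASN had 10.40 and 10.10 with shIRAK4 against 11.78 and 11.46 with scramble, with no overlap, and fell by 1.37 on the log2 scale (adjusted p = 0.00496). FADS1 had 9.80 and 8.87 with shIRAK1+4 against 10.04 and 10.16 with scramble, and 9.38 and 9.44 with DMSO (-0.76 ± 0.21, adjusted p = 0.0452), the lower value being replicate 2. ELOVL6, well above the detection limit in Capan1, had 9.16 and 9.13 with shIRAK1+4, 9.33 and 9.23 with shIRAK1 and 9.29 and 8.91 with shIRAK4, against 9.57 and 9.66 with scramble and 8.47 and 8.46 with DMSO. It fell with shIRAK1+4 (-0.47 ± 0.13, adjusted p = 0.0376) and shIRAK4 (-0.51 ± 0.13, adjusted p = 0.0185). The first call was kept under 3 of 13 alternatives and lost without any 1 of its 4 arrays, and the shIRAK4 call under 6 of 13, being lost without scramble replicate 1 or 2 or shIRAK4 replicate 2. The difference between the lines passed with shIRAK1+4 (1.05 ± 0.18, adjusted p = 0.00177, and 0.0511 under median scaling). ACLY, ACACA and LPIN1 were not called in any Capan1 hairpin comparison.

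For scramble against DMSO in Capan1, 9 of 27 genes rose and 2 fell, where 15.6% of all genes were called, 7.97% higher and 7.59% lower, and the arms differed in their medians: 0.17 in the sterol arm and 0.62 in the fatty acid arm, with no test of that gap. In the fatty acid arm SCD (2.01 ± 0.44), ELOVL6 (1.15 ± 0.13, adjusted p = 1.10e-05), FADS1 (0.69 ± 0.21) and ACACA (0.62 ± 0.20) rose. Among the regulators INSIG1 (1.17 ± 0.22) and SREBF1 (0.96 ± 0.19, adjusted p = 0.00247) rose. In the sterol arm LSS, FDFT1 and NSDHL rose by 0.48 to 0.55, while SC4MOL (-0.78 ± 0.17) and SC5DL (-0.62 ± 0.20, adjusted p = 0.0499) fell, the SC5DL call being lost under 12 of 13 alternatives, with any 1 array left out among them, and its value being 0.04 under median scaling. Median scaling gave 16 genes higher and none lower. Leaving out 1 array brought the 11 calls to 4 without DMSO replicate 1 or 2, to 5 without scramble replicate 1 and to 6 without scramble replicate 2.

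**Figure D4:**
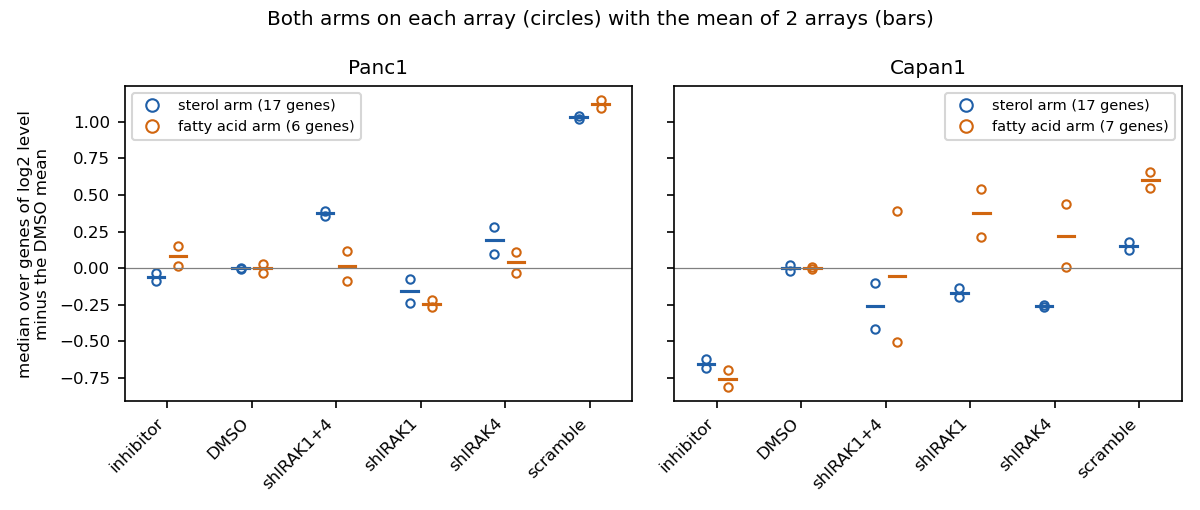
Median, over the genes of each arm present on every array of the line, of the log2 level minus the DMSO mean, on each array (open circles) with the mean of the pair (bars), sterol arm in blue and fatty acid arm in orange. In Panc1 both arms are highest on the scramble arrays, and in Capan1 the sterol arm lies below 0 and the fatty acid arm mostly above 0 on the knockdown arrays.

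The arm medians were also taken array by array in Capan1. Over the 17 sterol arm genes present throughout the line, the median level minus the DMSO mean was -0.10 and -0.41 with shIRAK1+4, -0.20 and -0.14 with shIRAK1 and -0.25 and -0.26 with shIRAK4, against 0.13 and 0.18 with scramble. Over 7 fatty acid genes it was 0.39 and -0.50 with shIRAK1+4, 0.22 and 0.54 with shIRAK1 and 0.44 and 0.01 with shIRAK4, against 0.66 and 0.55 with scramble. Every knockdown array was below the scramble arrays in both arms, and the sterol arm was below its DMSO level on all 6 of them. In Panc1 the scramble medians were 1.02 and 1.04 over 17 sterol arm genes and 1.15 and 1.09 over 6 fatty acid genes, without ELOVL6.

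Much of the module was lower with the inhibitor in Capan1. Of 28 genes tested, 15 fell and 2 rose, where 32.7% of all genes tested were called, 15.8% lower and 16.9% higher. The median fold change was -0.52, and 0.01 over all genes tested. In the sterol arm 10 of 18 fell, with a median of -0.52. In the fatty acid arm 4 of 7 fell and 1 rose, with a median of -0.78. This order of the arms turned with the background from all probes (-0.22 sterol, -0.16 fatty acid) and with no detection filter (-0.52 and -0.41). It held under every other alternative. Median scaling left 5 calls, 3 lower and 2 higher. That scaling moved the median of all genes to 0.36 and that of the 28 genes to -0.23, and its calls over all genes were 1910 higher and 326 lower, against 2039 higher and 1914 lower with quantiles. Leaving out DMSO replicate 2 or inhibitor replicate 2 left 10 calls each.

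SC4MOL showed the largest fall. Its log2 levels were 5.81 and 6.08 with inhibitor against 7.79 and 7.66 with DMSO, a fold change of -1.78 ± 0.17 (adjusted p = 1.17e-06). SQLE had 8.60 and 8.78 with inhibitor against 10.25 and 10.23 with DMSO (-1.55 ± 0.20, adjusted p = 3.03e-05). Both inhibitor pairs lay more than 1 log2 unit below DMSO. ACAT2 had 7.60 and 7.91 with inhibitor against 9.12 and 9.23 with DMSO (-1.42 ± 0.15, adjusted p = 3.45e-06). DHCR7 had 8.03 and 7.97 with inhibitor against 9.43 and 9.02 with DMSO (-1.23 ± 0.22, adjusted p = 0.000486). These genes stand at the entry, the middle and the end of the sterol route, and neither pair overlapped. SC5DL had 8.31 and 8.33 with inhibitor against 9.28 and 9.22 with DMSO (-0.93 ± 0.20, adjusted p = 0.00238). IDI1, EBP, HMGCS1, MVD and MVK fell by 0.88, 0.75, 0.71, 0.65 and 0.38 on the log2 scale. The MVK call was kept under 5 of 13 alternatives and lost under median scaling and without any 1 of its 4 arrays. The remaining 8 sterol arm genes were not called: LSS (-0.37 ± 0.14, adjusted p = 0.0515), FDFT1 (-0.34), FDPS (-0.30) and CYP51A1 (-0.29) were below 0, and NSDHL (-0.02), TM7SF2 (0.09), PMVK (0.10) and HSD17B7 (0.38) were near or above it.

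The regulators went both ways with the inhibitor in Capan1. INSIG1 had 7.29 and 7.41 with inhibitor against 7.90 and 8.13 with DMSO and fell by 0.66 on the log2 scale (adjusted p = 0.0318). SREBF1 had 6.33 and 6.61 with inhibitor against 5.94 and 5.80 with DMSO and rose by 0.60 ± 0.19 (adjusted p = 0.0224). The pairs did not overlap for either gene. The INSIG1 call was kept under 6 of 13 alternatives and lost under median scaling and without any 1 of its 4 arrays. The SREBF1 call was kept under 7 of 12, being lost without DMSO replicate 1 or 2 or inhibitor replicate 2. SREBF2 was above background with inhibitor (5.77 and 5.76) and not with DMSO (5.43 and 5.58), at least 1.14-fold higher, and did not pass (adjusted p = 0.102).

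In the fatty acid arm of the same comparison LPIN1 had 6.57 and 6.67 with inhibitor against 7.48 and 7.66 with DMSO (-0.95 ± 0.18, adjusted p = 0.000769), and ACLY (-0.89 ± 0.15), FADS1 (-0.81 ± 0.21) and FASN (-0.78 ± 0.27) fell with it. The FASN call was kept under 5 of 13 alternatives and lost under median scaling and without any 1 of its 4 arrays. ELOVL6 rose, with 8.88 and 9.12 with inhibitor against 8.47 and 8.46 with DMSO (0.54 ± 0.13, adjusted p = 0.00399). SCD had 10.98 and 10.96 with inhibitor against 10.16 and 9.95 with DMSO: both inhibitor arrays were higher, and the difference of 0.92 ± 0.44 did not pass (adjusted p = 0.12). ACACA was 0.10 ± 0.20.

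**Figure D5:**
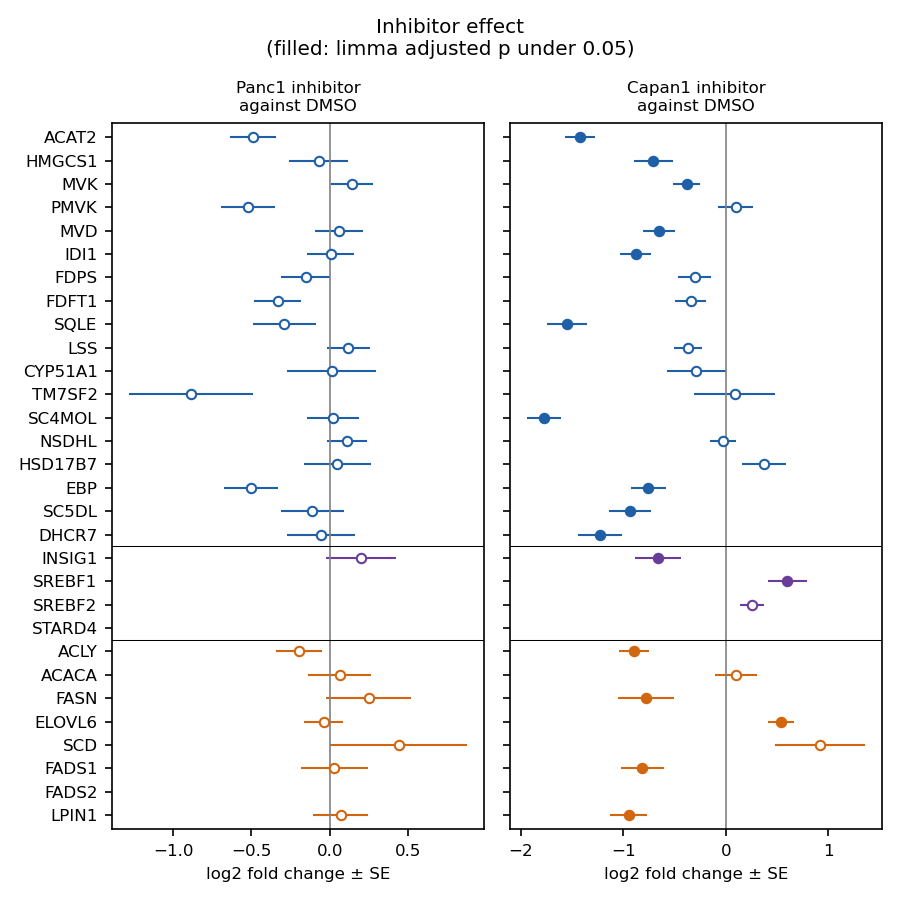
Log2 fold change ± SE of each gene for inhibitor against DMSO, Panc1 at left and Capan1 at right on their own scales; filled circles passed the limma threshold. No circle is filled in Panc1, and 17 are filled in Capan1, 15 of them left of 0.

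In Panc1 none of 26 tested genes was called with the inhibitor by limma, where 6.61% of all genes were, 3.64% higher and 2.97% lower, and 5 genes had an unadjusted p under 0.05. The median was 0.01, -0.06 in the sterol arm and 0.06 in the fatty acid arm. Array weights in the same model gave 3 calls, and fitting Panc1 alone or inferring the background from all probes gave 1 each. The largest value, TM7SF2, had 6.31 and 6.41 with inhibitor against 7.21 and 7.28 with DMSO, without overlap (-0.89 ± 0.40, adjusted p = 0.208). ACAT2 had 8.73 and 8.62 with inhibitor against 9.26 and 9.07 with DMSO (-0.49 ± 0.15, adjusted p = 0.0566), and PMVK (-0.52 ± 0.17) and EBP (-0.50 ± 0.17) had values of the same size. SCD was 0.44 ± 0.44 and INSIG1 0.20 ± 0.22. SREBF1 and SREBF2 were not testable in this comparison.

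The inhibitor effect differed between the lines for 9 of 28 genes, where 16.2% of all genes were called in this interaction, 7.92% higher and 8.25% lower. The effect was higher in Panc1 than in Capan1 for 6 sterol arm genes, ACAT2, MVD, IDI1, SQLE, SC4MOL and DHCR7, and for ACLY and LPIN1, and lower for ELOVL6. SC4MOL had the largest difference, 1.80 ± 0.23 (adjusted p = 0.000123), from 0.02 in Panc1 and -1.78 in Capan1. None of the 28 passed under median scaling, and 5 did without Capan1 DMSO replicate 1 or 2, Panc1 DMSO replicate 2 or Panc1 inhibitor replicate 2. The shIRAK1+4 effect differed for 5 of 28 genes, where 10.4% of all genes were called, 6.04% higher and 4.37% lower: HMGCS1, SC4MOL, FADS2 and LPIN1 were lower in Panc1 and ELOVL6 higher. FADS2 was present on no Capan1 array, with Capan1 means of 5.38 with shIRAK1+4 and 5.41 with scramble. A Capan1 effect on FADS2 could therefore not be measured, and its difference does not show that the lines differ. Under median scaling all 5 were lost and 1 other gene passed, and without Capan1 shIRAK1+4 replicate 1 there were 8.

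With DMSO alone, 14 of 27 genes were lower and 2 higher in Panc1 than in Capan1, where 57.7% of all genes were called, 27% lower and 30.7% higher, so the count of calls was close to the background. ELOVL6 had 6.03 and 5.80 in Panc1 DMSO against 8.47 and 8.46 in Capan1 DMSO (-2.55 ± 0.13, adjusted p = 6.18e-11), the widest gap of the module. MVD had 6.27 and 6.20 in Panc1 against 8.63 and 8.56 in Capan1 (-2.36 ± 0.15), HMGCS1 8.06 and 8.20 in Panc1 against 10.34 and 10.52 in Capan1 (-2.29 ± 0.19), and FDFT1 9.13 and 9.19 in Panc1 against 11.26 and 11.20 in Capan1 (-2.07 ± 0.15). All of these pairs were more than 2 log2 units apart on average, with Capan1 the higher. NSDHL went the other way, with 10.50 and 10.35 in Panc1 against 8.70 and 8.62 in Capan1 (1.77 ± 0.13), as did LPIN1 (0.71 ± 0.18). SQLE had 8.85 and 8.75 in Panc1 against 10.25 and 10.23 in Capan1 (-1.44 ± 0.20), and INSIG1 7.06 and 6.93 in Panc1 against 7.90 and 8.13 in Capan1 (-1.02 ± 0.22). IDI1, FDPS, TM7SF2, SC4MOL, DHCR7, ACLY, ACACA and FADS1 were also lower in Panc1, with fold changes of -1.30 to -0.40. In Panc1 scramble cells HMGCS1, with 10.10 and 9.85, came to within 1 log2 unit of the 10.49 and 10.77 of Capan1 scramble cells.

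Beyond these genes, 43 others of the same routes, the SREBP machinery and sterol export were counted. With shIRAK1+4 in Panc1, 4 of 32 tested fell and none rose; with shIRAK1 3 of 31 fell and 2 rose; with shIRAK4 5 of 30 fell and 1 rose. Among all genes 14.7%, 10.8% and 13.7% were called in these comparisons, so the counts are near those of all genes and nothing is read from them. ME1, the malic enzyme that supplies NADPH, fell with shIRAK1+4 (-1.09 ± 0.24) and shIRAK4 (-0.90 ± 0.24), and ACSS2, which makes acetyl-CoA from acetate, fell in the same knockdowns (-0.79 ± 0.22 and -0.88 ± 0.22). With shIRAK1, INSIG2 rose (0.82 ± 0.18) and SMPDL3A was at least 1.52-fold higher than in scramble (adjusted p = 0.0361). In scramble against DMSO in Panc1, 4 of 31 rose and 4 fell, against 26.8% called among all genes, and ABCA1, the cholesterol exporter, was among those that rose (0.98 ± 0.35).

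In Capan1, 4 of 36 of these genes fell and 1 rose with shIRAK1+4, 1 of 35 fell with shIRAK1, and 3 of 35 fell and 1 rose with shIRAK4, where 5.68%, 1.63% and 8.34% of all genes were called. ACSL1, an acyl-CoA synthetase, fell in each (-1.21, -1.23 and -1.08 with shIRAK1+4, shIRAK1 and shIRAK4) and rose in scramble against DMSO (1.35 ± 0.19, adjusted p = 0.000166). ACSL3, another such enzyme, fell with shIRAK1+4 (-0.99 ± 0.19) and rose in scramble against DMSO (1.06 ± 0.19). MYLIP fell with shIRAK1+4 (-0.73 ± 0.19) and rose in scramble against DMSO (1.78 ± 0.19), where 3 of 35 rose and 3 fell, against 15.6% called among all genes. With the inhibitor 6 of 35 rose and 4 fell in Capan1, against none of 31 in Panc1 by limma, where 32.7% of all genes were called in Capan1 and 6.61% in Panc1, and the Capan1 count is near that of all genes. The 3 largest in Capan1 were MYLIP (2.17 ± 0.19, adjusted p = 5.08e-07), NR1H3 (1.41 ± 0.30, adjusted p = 0.00232) and ME1 (-1.16 ± 0.24, adjusted p = 0.00155). NR1H3 encodes the sterol sensor LXR alpha, and MYLIP is a ubiquitin ligase switched on by LXRs. MYLIP averaged 9.47 with inhibitor against 7.29 with DMSO in Capan1, and 7.60 with inhibitor against 7.32 with DMSO in Panc1, and the difference between the lines passed (-1.90 ± 0.26, adjusted p = 0.00023). In the sterol export and LXR list 3 of 6 genes rose with the inhibitor in Capan1, ABCG1 being the other (at least 1.38-fold higher), where 16.9% of all genes were called higher. The rest of that list, NR1H2, ABCA1 and SMPDL3A, was not called. NR1H2 averaged 6.95 with inhibitor against 6.43 with DMSO, ABCA1 5.69 against 5.36 and SMPDL3A 6.01 against 6.44, the last being lower with inhibitor. SCAP itself rose by 0.61 ± 0.18 in Capan1 with the inhibitor (adjusted p = 0.0161). ABCG1, SCAP and the uncalled genes of that list are named after their values were seen. With DMSO, 8 of 33 were higher and 13 lower in Panc1 than in Capan1, against 57.7% called among all genes, and INSIG2 (-2.30 ± 0.18), NR1H3 (-1.59 ± 0.30) and ELOVL5, an elongase of polyunsaturated fatty acids (1.52 ± 0.24), had the widest gaps. The inhibitor effect also differed between the lines for ME1 (1.14 ± 0.33) and TMEM97 (0.58 ± 0.17), and the shIRAK1+4 effect for ME1 (-1.43 ± 0.33), ACSL1 (1.27 ± 0.27) and MYLIP (1.19 ± 0.26).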

How the data were processed

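The deposited non-normalized table holds log2 signals and a detection p-value for each gene on each of 24 one-colour Illumina arrays, per the file headers. Signals were exported with GenomeStudio 2011, per the submitters' processing notes. The background step and the combining of probes are not given in the sources used here. A second deposited table holds log2 values that, judged from their nearly equal quantiles, the authors had quantile normalized; it served as an alternative.

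Signals were set on the linear scale and corrected by normexp in limma 3.58.1 (R 4.3.3), with background mean and SD taken from how detection p-values of 27191 one-probe rows relate to signal; these p-values step by 1 in 770 (negative controls) within a tolerance of 0.01. The background SD so inferred ran from 9.45 (Capan1 scramble replicate 2) to 45.6 (Panc1 DMSO replicate 1), and an SD from detection quantiles ran from 5.87 to 8.15. With the latter the sterol arm median for the Capan1 inhibitor was -0.67 in place of -0.52. The fatty acid arm median for Panc1 shIRAK1 was -1.03 in place of -0.77. An offset of 16 was added, log2 was taken and arrays were quantile normalized. A one-probe gene was present at a detection p under 0.01. The detection p of the 7404 genes with several probes was not used, because 7214 of 18071 of their values (39.9%) failed detection in spite of a log2 level above 8; they were present at or above the array's lowest detected one-probe level. A gene entered a comparison when it was present on both arrays of one group compared. 1 limma model of 12 group means was fitted over all arrays, with eBayes (residual df 12, prior df 4.05) and Benjamini-Hochberg adjustment within each comparison at 0.05. A gene not above background on any array of a group is given as an at least N-fold bound: the brighter group's mean over the dim group's mean of, per array, the higher of the detection limit and the measured level. Levels of different probes were not compared. The number of arrays limits the precision. The script was tested on simulated data.

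The genes and lists were chosen with earlier results of these data known. Values on each array are given for the 6 genes with the largest change past the threshold and all 4 array-to-array differences of 1 sign, and for INSIG1, SREBF1 and SREBF2 where they pass. Of 43 other pathway genes, the 3 largest past the threshold are named, except that some are not reported here. Alternatives were median scaling, another background, the deposited normalized values, no detection filter, 1 line alone, array weights, a replicate block and leaving out each array.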

Additional observations from a re-analysis of the deposited data

Results flagged for a closer look

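For 9 genes the inhibitor effect differed between the lines by limma's interaction test, given as Panc1 minus Capan1 with SE and adjusted p. In the sterol arm the differences were 1.80 ± 0.23 for SC4MOL (adjusted p = 0.000123), 1.26 ± 0.28 for SQLE (0.00675), 1.17 ± 0.31 for DHCR7 (0.0161), 0.93 ± 0.21 for ACAT2 (0.00659), 0.88 ± 0.21 for IDI1 (0.011) and 0.71 ± 0.22 for MVD (0.0364). In the fatty acid arm they were 1.02 ± 0.25 for LPIN1 (adjusted p = 0.0115), 0.70 ± 0.21 for ACLY (0.0327) and -0.58 ± 0.18 for ELOVL6 (0.037). For 5 genes the shIRAK1+4 effect against scramble differed between the lines in the same test. The differences, Panc1 minus Capan1, were -1.48 ± 0.25 for LPIN1 (adjusted p = 0.00162), -1.44 ± 0.27 for HMGCS1 (0.00314), -1.12 ± 0.23 for SC4MOL (0.00679), 1.05 ± 0.18 for ELOVL6 (0.00177) and -0.59 ± 0.16 for FADS2 (0.027). FADS2 was present on no Capan1 array, so its difference rests on the Panc1 arrays and does not show that the lines differ. None of these 14 differences was past the threshold under median scaling.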

How the results depend on the processing

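The scaling between arrays moved most counts of called genes. Median scaling left 5 of 17 calls for the inhibitor in Capan1, 2 of 19 for shIRAK1+4, 8 of 22 for shIRAK1 and 5 of 19 for shIRAK4 in Panc1, 11 of 23 for scramble against DMSO in Panc1, and gave 19 in place of 12 for shIRAK1+4 and 2 in place of 4 for shIRAK1 in Capan1. It left 0 of 9 calls in the inhibitor interaction and gave 1 in place of 5 in that of shIRAK1+4. It put the median of all genes between -0.47 (Capan1 shIRAK1+4) and 0.58 (Capan1 scramble against DMSO); in the second, SC5DL turned to 0.0403, the 1 reversed value; the cause was not tested. For the inhibitor in Panc1, array weights gave 3 calls, and 1 line alone or the background from all probes 1 each. In Capan1 the deposited normalized values gave 7 calls for shIRAK1+4, 1 for shIRAK1 and 7 for scramble against DMSO, and no detection filter gave 5, 2 and 7 for these. Capan1 arrays alone gave 3 for shIRAK1+4, 0 for shIRAK1, 3 for shIRAK4 and 5 for scramble against DMSO. Array weights gave 7 for Capan1 shIRAK1 and 16 in the inhibitor interaction. A background SD from detection quantiles, chosen after seeing the data, gave 7 for Capan1 scramble against DMSO; the other alternative chosen so, the detection p for every gene, moved no count by over 1.5 times.

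Leaving out 1 array gave 0 to 0 calls for the inhibitor in Panc1 and 10 to 13 in Capan1, 12 to 14 for shIRAK1+4 in Panc1 and 3 to 16 in Capan1, 20 to 23 for shIRAK1 in Panc1 and 1 to 2 in Capan1, 14 to 18 for shIRAK4 in Panc1 and 3 to 10 in Capan1, 19 to 20 for scramble against DMSO in Panc1 and 4 to 6 in Capan1, 13 to 15 between the DMSO groups, and 5 to 6 and 4 to 8 in the inhibitor and shIRAK1+4 interactions; the model lends a lone array the spread of all groups. With the replicate number as a block the counts were 18 for the inhibitor in Capan1, 18 and 9 for shIRAK1+4, 22 and 4 for shIRAK1, 20 and 7 for shIRAK4 and 23 and 9 for scramble against DMSO (Panc1, then Capan1), none beyond 1.5 times; the labels do not pair the arrays, and deviations of same-numbered arrays correlated at -0.03 to 0.26. SC4MOL, SQLE and ACAT2 for the Capan1 inhibitor, SCD and HMGCS1 for Panc1 shIRAK1+4, and INSIG1, IDI1 and ACAT2 for Capan1 shIRAK1+4 kept their call under every alternative run. Levels near background limit MVK, LSS, SREBF1, SREBF2 and FADS2.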
